A study of Arabidopsis thaliana with 12 samples.

Results

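APS4, CBL, DHAD and AHAIR are 4 nuclear genes of Arabidopsis thaliana that encode plastid enzymes of sulfate activation, methionine synthesis and branched-chain amino acid synthesis. They were chosen by locus: AT5G43780 (APS4), AT3G57050 (CBL), AT3G23940 (DHAD) and AT3G58610 (AHAIR). Each had exactly 1 probe annotated to it alone, which gives 4 of the 3439 probes on the array and 4 of the 651 features with a single gene name. All 4 passed the filter on low values, and none of their 48 values lay at the floor set for low values. APS4 and CBL were dim all the same: only 17.1% and 16.4% of all features had a lower mean level. The plants were wild type, ecotype C24. The untreated group was grown under light that favours photosystem II (PSII light), and the other group under the same light with DCMU. DCMU, also called diuron, is a herbicide that stops plastoquinone from taking up electrons at photosystem II. Both groups shared the genotype and the light, and the labels give no tissue, plant age, DCMU dose or treatment time. Each group held 6 arrays of total RNA, numbered 1 to 6.

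Plants take up sulfur as sulfate, which has to be activated before it can be reduced. ATP sulfurylase, the enzyme encoded by APS4 and its relatives, joins sulfate to ATP to form adenosine phosphosulfate, and in leaves most of the reduction to sulfide that follows takes place in the plastid. Cysteine carries the reduced sulfur onward, and cystathionine beta-lyase (CBL) splits cystathionine to homocysteine, the direct precursor of methionine. Valine, leucine and isoleucine are built in the plastid by shared enzymes. Ketol-acid reductoisomerase (AHAIR) converts the product of acetohydroxyacid synthase with NADPH, and dihydroxyacid dehydratase (DHAD), an iron-sulfur enzyme, acts directly after it. Sulfate activation uses ATP and the reductoisomerase step uses NADPH, and photosynthetic electron flow supplies both in illuminated leaves.

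All values are the authors' scaled spot intensities, with no unit beyond that scaling. Array totals ran from 3643 to 3768. Arrays with the numbers 1 and 2, 3 and 4, and 5 and 6 resembled each other within each group and were averaged on the log2 scale, which gives 3 replicates per group. The labels do not say whether replicates came from separate plantings, so the p-values reflect only how far these replicates differed, which may be a technical spread. With DCMU the log2 level of the median feature was higher by 0.10, and 67.4% of all features had a change above 0. By number pair this shift was 0.10 at numbers 1-2, 0.03 at numbers 3-4 and 0.13 at numbers 5-6. Of the 14 leaf photosynthesis markers looked for, 5 had a probe of their own. Their summed level ran from 37.6 to 47.8 in untreated and from 31.1 to 39.7 in DCMU-treated plants. Without LHCB1.5, an antenna protein that fell, these ranges were 18.8 to 22.4 and 21.9 to 28.7. Most of the remainder was the marker PSBW alone, at 14.9 to 18.2 in untreated and 17.5 to 23.8 in DCMU-treated plants. The markers PRK, SBPASE and PSAN added little to either sum. Their mean changes with DCMU were 1.38-fold, 1.32-fold and 1.07-fold, and that of PSBW was 1.18-fold. None of the 10 root markers had a probe of its own, so the tissue could not be set against both lists. The part of tissue composition in the values below was not tested. In such bulk RNA, fewer cells of a type and less RNA per cell cannot be told apart.

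Across the 4 genes the DCMU effect was small. APS4 had the highest estimate, 1.28-fold, then DHAD at 1.19-fold, CBL at 1.13-fold and AHAIR at 1.06-fold. No gene of the 4 passed the test without the pairing of numbers, in which 5.09% of all 3278 features passed with 1.92% higher and 3.17% lower (limma, Benjamini-Hochberg over all features, threshold 0.05). With the number pair as a block APS4 passed and rose, where 10.7% of all features passed as higher. The numbers did pair the replicates across groups. APS4 and DHAD were higher with DCMU in all 3 number pairs, as were 40.1% of all features. Number by number, DHAD was higher in 6 of 6, as were 28.4% of all features, APS4 and AHAIR in 5 of 6 and CBL in 4 of 6. CBL and AHAIR were higher in 2 of 3 pairs. At numbers 1-2, 3-4 and 5-6, 65.3%, 55.6% and 68.6% of all features were higher. Counts short of all pairs or all numbers therefore say little about these genes.

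**Figure D1:**
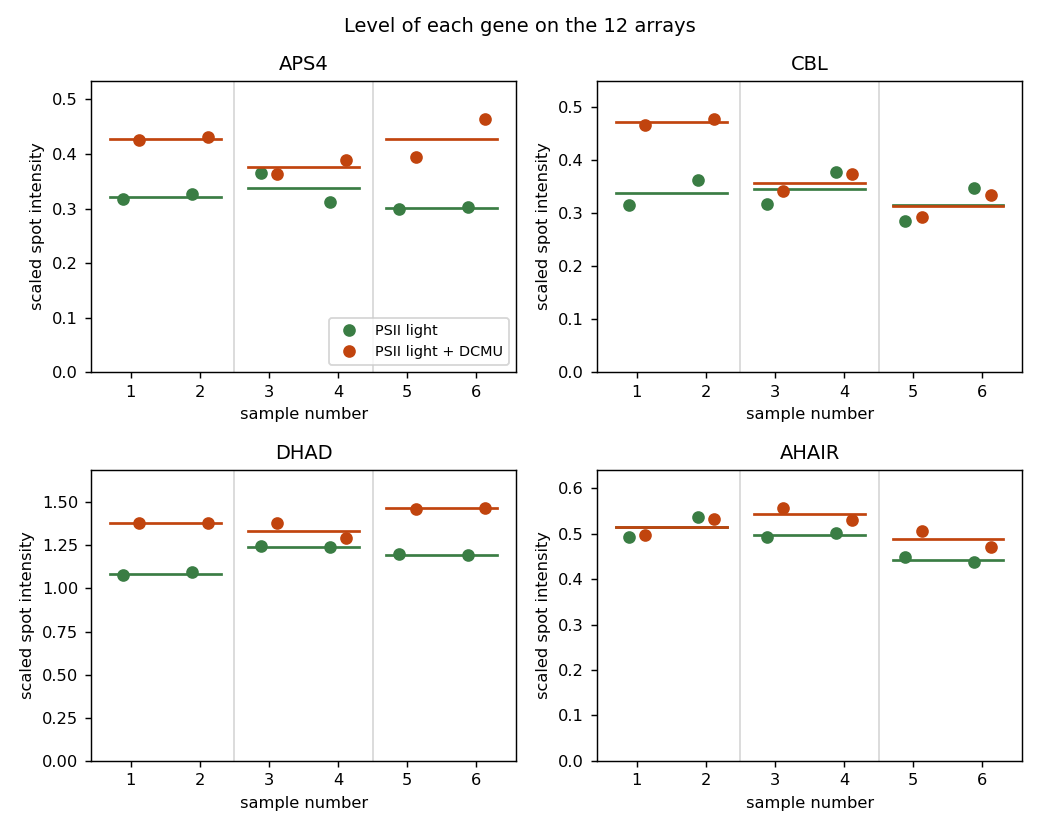
Scaled spot intensity (y axis, from 0) of APS4, CBL, DHAD and AHAIR by sample number (x axis), with a point for each array and a line for the mean of each number pair, in untreated (green) and DCMU-treated (orange) plants. The DHAD arrays do not overlap between groups, while the CBL arrays separate only at numbers 1 and 2.

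Sulfate activation was represented by APS4. In untreated plants its level had a lowest value of 0.299, a median of 0.315 and a highest value of 0.365 over 6 arrays. With DCMU the lowest was 0.363, the median 0.410 and the highest 0.464. The groups overlapped by a single value: untreated number 3 was the highest of its group and lay just above DCMU number 3, the lowest of its own. The replicate levels were 0.322, 0.338 and 0.301 without DCMU (numbers 1-2, 3-4 and 5-6) and 0.428, 0.376 and 0.428 with it. The 3 treated replicates all lay above the 3 untreated ones, as they did in 21.9% of all features.

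The mean level of APS4 went from 0.320 ± 0.0183 to 0.411 ± 0.0301 (SD, n = 3). The log2 change was 0.36 with a standard error of 0.11 and a 95% interval of 0.12 to 0.60, which corresponds to 1.09-fold to 1.51-fold. This had an unadjusted p of 0.00749 in limma, and 8.33% of all features had a smaller one, so that the adjusted p was 0.0892. With the replicate block the standard error was 0.10 and limma's adjusted p = 0.0337. That call was lost with the block after median centring of the arrays (log2 change 0.28, limma's adjusted p = 0.0632) and with the block after quantile normalization (0.26, adjusted p = 0.0742). With array weights and no block APS4 also passed (adjusted p = 0.0343), as did 6.25% of all features as higher. Among all features, 7.81% had a larger rise than APS4, and its change exceeded the median feature by 0.26.

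The log2 change of APS4 was uneven over the number pairs. It was 0.41 at numbers 1-2, 0.15 at numbers 3-4 and 0.51 at numbers 5-6. Against the median feature of the same pair it stood 0.32, 0.12 and 0.38 higher, at the 90.9th, 73.1st and 89.4th percentile of all changes in that pair. The smallest of these came from numbers 3-4, where the untreated arrays of the pair differed by 0.23 on the log2 scale, as did the treated arrays at numbers 5-6. Number 3 by itself had a change of -0.01 and number 4 one of 0.32. When numbers 3-4 were left out of both groups, APS4 passed with the block (log2 change 0.46, limma's adjusted p = 0.00273), and so did 18.6% of all features as higher. Without numbers 1-2 in both groups limma's adjusted p was 0.279, and without numbers 5-6 it was 0.191.

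Methionine synthesis was represented by CBL, whose arrays overlapped widely. Untreated plants had a lowest value of 0.284, a median of 0.332 and a highest value of 0.377. DCMU-treated plants had a lowest value of 0.293, a median of 0.357 and a highest value of 0.477. Only DCMU numbers 1 and 2, at 0.466 and 0.477, lay above every untreated array. The replicate levels were 0.337, 0.345 and 0.314 without DCMU and 0.472, 0.357 and 0.312 with it.

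The log2 change of CBL was 0.48 at numbers 1-2, the highest of the 4 genes in that pair and at the 95.1st percentile of all features. It was 0.05 at numbers 3-4 and -0.0084 at numbers 5-6, the last of these 0.14 below the median feature. The mean level went from 0.332 ± 0.0161 to 0.380 ± 0.0823 (SD, n = 3), so that the treated replicates varied by 21.6% of their mean and the untreated ones by 4.85%. The mean log2 change of 0.17 had a 95% interval of -0.15 to 0.50 (limma, adjusted p = 0.463), and with the replicate block the interval was -0.07 to 0.42 (adjusted p = 0.275). Rescaling lowered the mean change of CBL to 0.0997 (median centring) and 0.0808 (quantile normalization). A pseudocount of 0.5 in place of the floor gave 0.0763. Without DCMU numbers 1-2 the change was 0.0085 (limma, adjusted p = 0.976). CBL was also the gene whose paired arrays agreed least, with a median difference of 0.20 on the log2 scale between the numbers of a pair, against 0.0837 over all features.

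**Figure D2:**
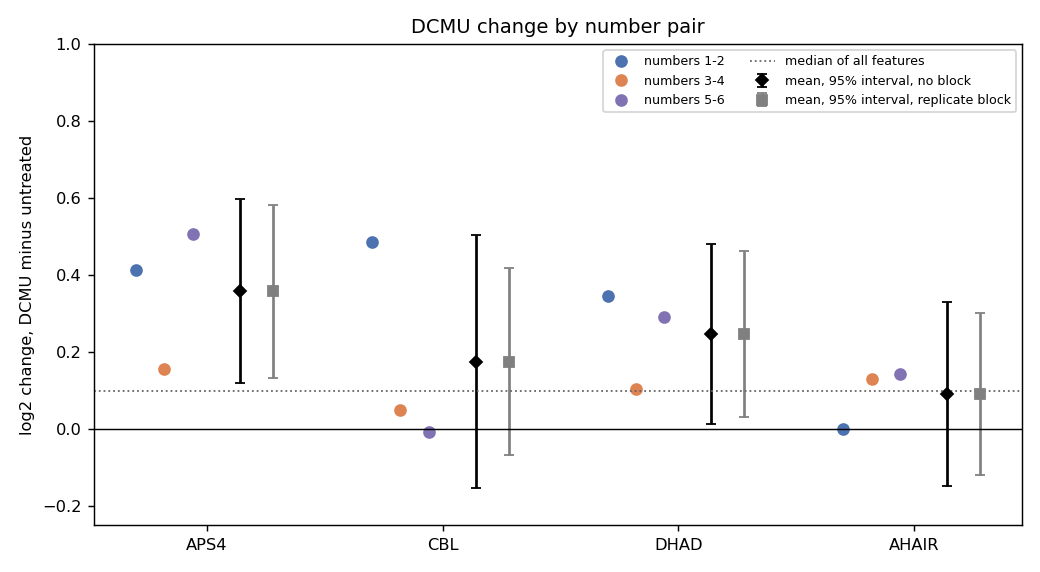
Log2 change with DCMU (y axis) of the 4 genes (x axis), with a coloured point for each number pair, a black diamond for the mean with its 95% interval from the fit without a block and a grey square for the same mean with the replicate block. The dotted line marks the median of all features at 0.10. APS4 and DHAD have all 3 points above 0, and CBL has 1 point at 0.48 with the other two near 0.

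Branched-chain synthesis was represented by DHAD and AHAIR, which catalyse successive steps. DHAD had the most even measurements of the 4 genes: the arrays of a pair differed by a median of 0.0067 on the log2 scale. Its level had a lowest value of 1.08, a median of 1.197 and a highest value of 1.24 in untreated plants. With DCMU the lowest was 1.296, the median 1.38 and the highest 1.47. All 6 treated arrays lay above all 6 untreated arrays, which held for 9.82% of all features in that direction.

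The replicate levels of DHAD were 1.09, 1.24 and 1.197 without DCMU and 1.38, 1.34 and 1.47 with it. The mean level went from 1.18 ± 0.0805 to 1.39 ± 0.0656 (SD, n = 3). The log2 change was 0.25 with a standard error of 0.11 and a 95% interval of 0.01 to 0.48 (limma, unadjusted p = 0.0402, adjusted p = 0.184). With the replicate block the interval was 0.03 to 0.46 and limma's adjusted p = 0.0973. By number pair the log2 change was 0.35, 0.10 and 0.29 (numbers 1-2, 3-4 and 5-6), and against the median feature of the same pair 0.25, 0.07 and 0.16. The groups thus separated on every array, yet the change lay close to the shift of the median feature at numbers 3-4, and 21.1% of all features had a larger mean rise. After median centring the change was 0.17, with an interval that included 0 without the block (-0.06 to 0.41; limma, adjusted p = 0.374) and with it (-0.03 to 0.37; adjusted p = 0.214). With the block and 1 number pair left out of both groups, limma's adjusted p for DHAD was 0.424 without numbers 1-2, 0.0481 without numbers 3-4, where 18.6% of all features passed as higher, and 0.328 without numbers 5-6. It also passed when all 12 arrays counted as separate replicates (limma, adjusted p = 0.00709), a setting that counts paired numbers singly and in which 23.4% of all features passed as higher. With the paired numbers as a random block it did not (adjusted p = 0.0834).

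AHAIR overlapped between the groups and did not pass the test. Its level had a lowest value of 0.437, a median of 0.492 and a highest value of 0.538 in untreated plants. With DCMU the lowest was 0.471, the median 0.518 and the highest 0.557. The replicate levels were 0.514, 0.497 and 0.443 without DCMU and 0.514, 0.543 and 0.488 with it, so numbers 5-6 were the lowest in both groups. The mean level went from 0.485 ± 0.0375 to 0.515 ± 0.0274 (SD, n = 3).

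The log2 change of AHAIR was 0.09, with a 95% interval of -0.15 to 0.33 (limma, adjusted p = 0.613), and the replicate block gave -0.12 to 0.30 (adjusted p = 0.525). A rise above 1.26-fold and a fall below 0.902-fold lie outside the first interval. By number pair the log2 change was -0.00093, 0.13 and 0.14. Relative to the median feature the mean change was -0.0078, and after quantile normalization it was -0.00096.

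**Figure D3:**
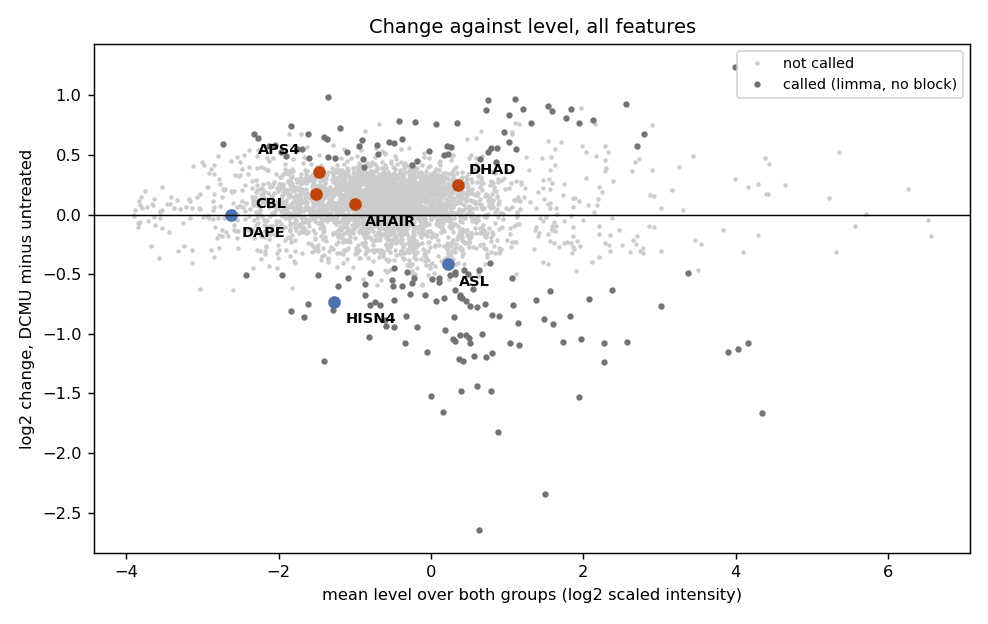
Log2 change with DCMU (y axis) against the mean level over both groups (x axis, log2 scaled intensity) for all 3278 features. Features that passed the test without a block are dark grey, APS4, CBL, DHAD and AHAIR are orange, and 3 other amino acid synthesis genes are blue. The 4 orange points lie within the cloud of features that did not pass, and HISN4 lies among those that fell.

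The permutation test used here could not show a difference in response between the 4 genes. In each of the 6 pairs of genes the log2 ratio was compared between the groups by permuting the replicates exactly and two-sided. With 3 against 3 replicates such a permutation test cannot give a p below 0.1. APS4 and AHAIR differed most, by 0.27 (95% interval from the spread of the replicates -0.04 to 0.58, exact p = 0.1, adjusted p = 0.6 over the 6 pairs). This difference was 0.41 at numbers 1-2, 0.03 at numbers 3-4 and 0.36 at numbers 5-6. DHAD and AHAIR, the successive steps, differed by 0.16 (-0.22 to 0.53, exact p = 0.5), and APS4 and DHAD by 0.11 (-0.11 to 0.33, exact p = 0.3). APS4 was above DHAD in each number pair, by 0.07, 0.05 and 0.21. The intervals and permutations do not use the pairing of numbers, and the intervals include 0 in all 6 pairs of genes. With a smallest p of 0.1 the test could not pass, so it shows neither that the genes differ nor that they act alike.

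Few other genes of these routes had a probe of their own. The 4 lists looked at held 161 loci of sulfate assimilation and cysteine synthesis, aspartate family and methionine synthesis, branched-chain synthesis, and other amino acid synthesis with nitrogen assimilation. Of these, 7 were measured by name, APS4, CBL, DHAD and AHAIR among them, and 9 further probes were annotated to several genes and were not named. Sulfate assimilation had 1 measured member of 43, the aspartate family 2 of 34, branched-chain synthesis 2 of 23 and the remaining list 2 of 61. The 7 measured genes had a median log2 change of 0.09, close to the 0.10 of all features. A change above 0 was found in 4 of the 7 and in 67.4% of all features. Without the block 0 of 7 were called higher and 1 lower, where 1.92% of all features passed as higher and 3.17% as lower. With the block 1 was called higher and 2 lower, where 10.7% of all features passed as higher and 6.56% as lower.

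The 3 other measured genes all had mean log2 changes below 0. HISN4, the imidazole glycerol-phosphate synthase of histidine synthesis, was at 0.559, 0.558 and 0.491 without DCMU and at 0.309, 0.349 and 0.311 with it, in the same order of pairs. It fell 1.66-fold (log2 change -0.73, 95% interval -0.97 to -0.49; limma, adjusted p = 0.00350), and its 6 treated arrays all lay below the untreated ones, as in 5.61% of all features. With a pseudocount of 0.5 in place of the floor, its log2 change was -0.33, and with the block and without numbers 1-2 in both groups it did not pass (limma, adjusted p = 0.0721). ASL, argininosuccinate lyase of arginine synthesis, was at 1.58, 1.05 and 1.46 without DCMU and at 1.23, 0.816 and 1.02 with it. It was lower in all 3 number pairs, by a log2 change of -0.36, -0.37 and -0.52, while its groups overlapped because the pairs differed in level. Its mean change of -0.42 (-0.82 to -0.01) had limma's adjusted p = 0.194 without the block and adjusted p = 0.0123 with it. The call with the block was lost without numbers 1-2 (adjusted p = 0.202) or 5-6 (adjusted p = 0.0747) in both groups, and without DCMU numbers 3-4 the change in the fit with no block was -0.26.

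DAPE, the diaminopimelate epimerase of lysine synthesis, shares its list with CBL. It was dim, at 0.165 ± 0.0291 without and 0.163 ± 0.0232 with DCMU (SD, n = 3), and its log2 change was -0.0058 (-0.35 to 0.34; limma, adjusted p = 0.988). No difference was detectable for it.

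**Figure D4:**
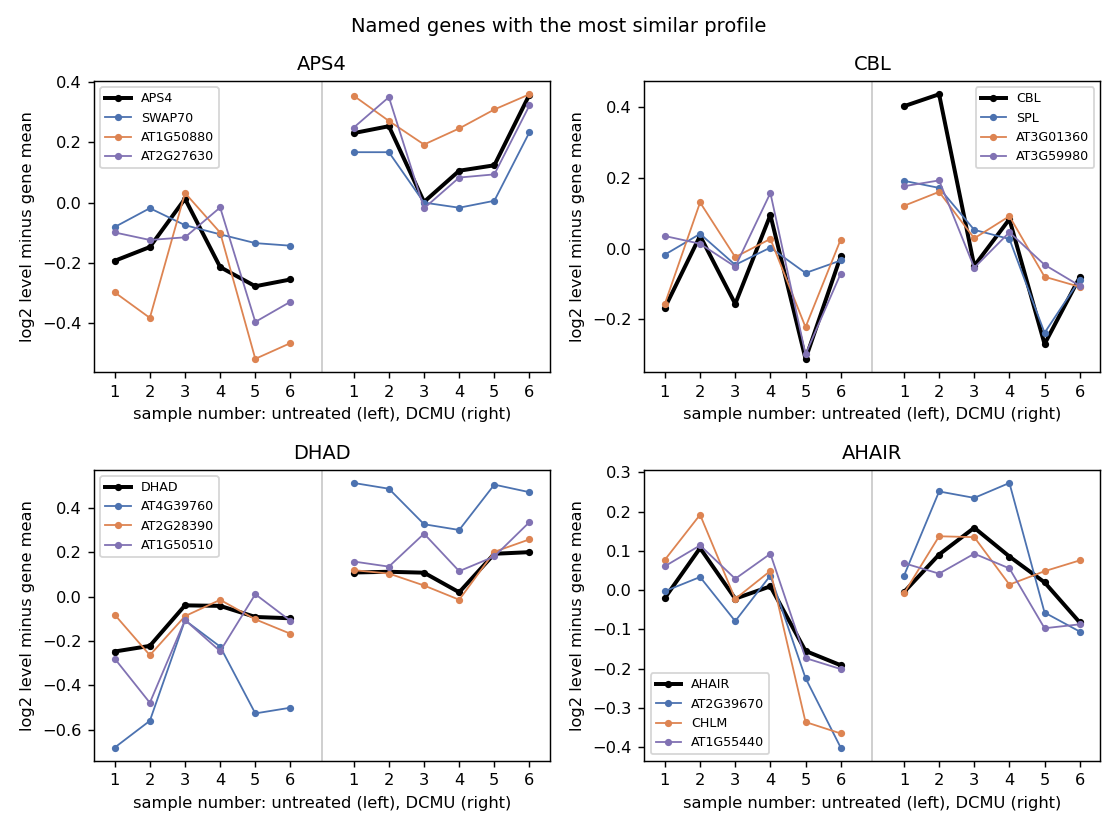
Log2 level minus the gene's mean (y axis) over the 12 arrays (x axis, untreated at left and DCMU at right) for APS4, CBL, DHAD and AHAIR (black) and the 3 named genes with the highest Pearson correlation to each (coloured). Lines join the arrays of a gene within a group and imply no order. The APS4 and DHAD profiles step up with DCMU, the CBL profile is set by DCMU numbers 1 and 2, and the mean of numbers 5 and 6 is the lowest pair mean of AHAIR in both groups.

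The named genes most like each of the 4 were looked for by Pearson correlation of log2 levels over the 12 arrays, among 650 other named features. These correlations are descriptions. The 12 points share 2 groups, the number pairs and the array scaling, and all of these enter the values. APS4 was most like SWAP70 (r = 0.93), AT1G50880 (r = 0.92) and AT2G27630 (r = 0.92). With group means removed these values were 0.80, 0.66 and 0.75. Of the 3, AT1G50880 rose (log2 change 0.58, limma, adjusted p = 0.0300), and AT2G27630 passed with the block alone (0.36, adjusted p = 0.119 without and 0.0398 with it). Like APS4, all 3 had their smallest change at numbers 3-4. So did the median feature, and genes picked for following APS4 over these arrays tend to share its pattern by that choice.

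DHAD was most like AT4G39760, an F-box kelch-repeat gene (r = 0.95), AT2G28390 (r = 0.91) and AT1G50510 (r = 0.90). With group means removed these correlations were 0.78, 0.70 and 0.63, and by Spearman correlation other genes were the most similar. AT4G39760 rose far more than DHAD, by 0.87 on the log2 scale (limma, adjusted p = 0.00410). AT2G28390 is a SAND family gene widely used as a reference gene for quantitative PCR in Arabidopsis. Its log2 change was 0.24 (0.0052 to 0.47; limma, adjusted p = 0.195), nearly that of DHAD, with 0.28, 0.07 and 0.36 over the number pairs. Because AT2G28390 was picked for following DHAD over these arrays, a similar change and pair pattern follow in part from that choice. AT1G50510 had a log2 change of 0.40 (limma, adjusted p = 0.0760, and 0.0153 with the block).

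CBL was most like SPL (r = 0.87), a regulator of spore-forming cells in the flower, AT3G01360 (r = 0.84) and AT3G59980 (r = 0.83). Their mean log2 changes were 0.04 to 0.07 and none passed; removing the group means left the correlations at 0.82 to 0.89. AHAIR was most like AT2G39670 (r = 0.91), CHLM (r = 0.85), the methyltransferase of the magnesium branch of chlorophyll synthesis, and AT1G55440 (r = 0.83), and none of these passed. Among the 4 genes themselves, APS4 and DHAD were the most alike (r = 0.81). With group means removed this value was 0.28. DHAD and AHAIR, though successive in one route, had r = 0.18, or -0.47 with group means removed.

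**Figure D5:**
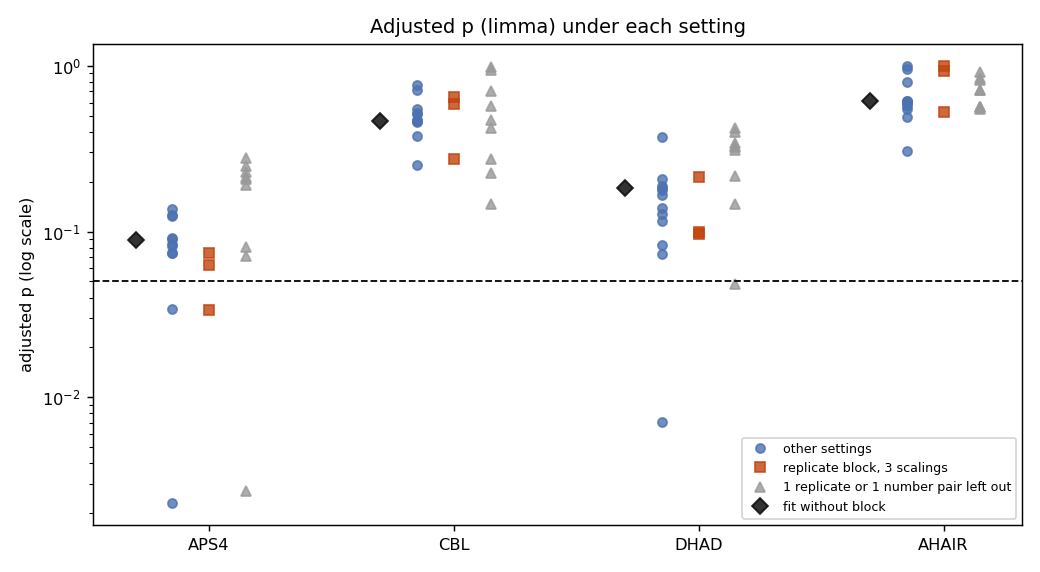
Adjusted p from limma (y axis, log scale) for the DCMU change of the 4 genes (x axis) in the fit without a block (black), with the replicate block under 3 scalings (orange), under other settings (blue) and with 1 replicate or number pair left out (grey). The dashed line marks 0.05. APS4 and DHAD cross it under some settings, and CBL and AHAIR under none of those shown.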

How the data were processed

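Total RNA of 12 samples was measured by array. The authors deposited scaled linear intensities, 1 for each probe on each array. The sources used here do not state labelling, scanning, background correction or scaling. The highest array total was 1.03 times the lowest, so the scaling was kept. Depth has no counterpart on arrays, and their number limits the precision.

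Probes with 1 gene in the platform annotation (692 of 3439; 870 had several, 1877 none) were named, 690 of them through the RefSeq TAIR10.1 gene table. No probe was checked by sequence. A floor of 0.0669, the 1st percentile of values above 0, was applied before log2. The 160 probes at or under it on every array were left out and spots of 1 gene averaged, leaving 3278 features. The comparison used limma (version 3.58.1, R 4.3.3) with lmFit and eBayes, two-sided, with Benjamini-Hochberg adjustment. It was also run on simulated data with planted changes larger than those of the 4 genes. The simulated data held no effect of number pairs and no shift shared by all features, so that run does not cover either.

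Deviations from group means correlated at 0.36 to 0.67 within the number pairs of a group and at -0.58 to -0.11 between other numbers. Between replicates of the same numbers across groups they correlated at 0.38 to 0.44, all 3 over 0.1. The fits with the block therefore treated replicates of the same numbers as paired. The fit without the block, whose values are given first for each gene, and the comparisons between the 4 genes did not use this pairing. Between replicates of different numbers across groups the correlations ran from -0.38 to 0.01. The centring on group means pushes correlations between different numbers down. Named were the 4 genes, every measured member of the pathway lists, and the 3 named features most correlated with each of the 4 genes. The genes, lists and number pairs were chosen with earlier results of these data known. Alternatives covered the block, scaling, floor, filter, replicate definition, variance model, threshold and each replicate.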

Additional observations from a re-analysis of the deposited data

How the results depend on the processing

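Without rescaling, the replicate block changed the calls of APS4 (limma, adjusted p = 0.0337) and ASL (adjusted p = 0.0123) and of no other gene named from the 4 genes and their lists. APS4 had a log2 change of 0.36 with limma's adjusted p = 0.00231 when 12 arrays counted as separate replicates (23.4% of all features then passed as higher). With paired numbers as a random block limma's adjusted p was 0.0743. Array weights gave 0.38 (limma, adjusted p = 0.0343), where 6.25% of all features passed as higher. At a false discovery rate of 0.1 APS4 passed with its change of 0.36, where 167 of 3278 features passed as higher. DHAD passed with 12 separate arrays (0.25, adjusted p = 0.00709), which counts paired numbers singly. CBL passed under none of 24 settings and AHAIR under none of 25. With a pseudocount of 0.5 in place of the floor APS4 was at 0.15, CBL at 0.0763 and HISN4 at -0.33. Leaving out 1 replicate gave 0.31 to 0.42 for APS4, 0.0085 to 0.31 for CBL, 0.19 to 0.29 for DHAD and 0.03 to 0.13 for AHAIR. Leaving out a number pair in both groups with the block gave 0.28 to 0.46 for APS4 and 0.20 to 0.32 for DHAD. AHAIR turned to -0.00096 after quantile normalization, with and without the block. DAPE turned to 0.0055 with linear averaging, ran from -0.15 to 0.12 without 1 replicate (0.0361 and 0.10 without untreated numbers 1-2 and 3-4) and was at 0.0591 with the block without numbers 3-4. HISN4 did not pass with the block without numbers 1-2 (-0.67, limma, adjusted p = 0.0721). The dimmest 25% of features held APS4, CBL, HISN4 and DAPE, so leaving it out gave no value for them.

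Of all features 167 passed without the block. The block gave 566, 501 with median centring and 465 with quantile normalization; 12 separate arrays gave 1089, a random block of paired numbers 302, array weights 359, a rate of 0.1 gave 310 and no filter gave 102. Leaving out 1 replicate gave 82, 282 and 87 for untreated numbers 1-2, 3-4 and 5-6 and 77 and 90 for DCMU numbers 1-2 and 5-6, and leaving out a number pair with the block gave 50, 848 and 334. Of the 7 measured pathway genes 1 was called, where 167 of all 3278 features passed. The count was 3 with the block (1 higher and 2 lower, 566 of all features) and 2 with it after either scaling (501 and 465). It was 4 with 12 separate arrays (1089) and 2 with array weights (359) or a rate of 0.1 (310). Without the dimmest 25% it was 0 (182 of the features left), and without a number pair 0 to 4 (50 to 848). These counts pool higher and lower calls, and those of all features moved with the setting too. No difference between the 4 genes passed with 6 against 6 single arrays (lowest exact p = 0.0173, adjusted p = 0.104, APS4 against AHAIR). That permutation counts paired numbers singly, so its p-values can come out too low. By Spearman, the 3 most similar genes shared 2 with those by Pearson for APS4 and AHAIR, 1 for CBL and 0 for DHAD. The cause of these shifts was not tested. The sources used here give no background values, so a dim level cannot be told from none.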
